A study of Mus musculus with 9 samples.

Results

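Protocadherins are cell adhesion proteins of the cadherin superfamily, and the mouse genes described here were every row of the deposited gene table whose symbol is Pcdh followed by a number, or by the letter and number of a clustered family member. The rule used names only and no measured value. It took 70 of the 55401 rows, 12 genes outside the clusters, 14 of the alpha cluster, 22 of the beta cluster and 22 of the gamma cluster. RNA was sequenced from brain tissue around the infarct in wild-type mice at day 28, in 3 groups of 3 libraries each. Sham mice were operated on without an infarct and given ultrapure water. PT mice had photothrombosis, a model of stroke in which a light-activated dye clots vessels of the cortex, and also received ultrapure water. Pushen mice had photothrombosis and received Pushen, a commercial drug preparation dissolved in ultrapure water, by gavage from 24 hours after surgery. The labels give the Pushen libraries 391, 392 and 393 mg/kg, and they were treated as 1 group. The sources used here give no strain, age or sex, and the labels do not say that libraries of 1 group are different animals. The p-values here therefore rest on the spread between libraries alone, which may be technical.

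In the alpha and gamma clusters each gene has a variable exon with its own promoter, which encodes the extracellular, transmembrane and proximal cytoplasmic parts of the protein, and this exon is spliced to constant exons that all genes of the cluster share. Beta genes have no constant exons. A neuron usually expresses a small set of the variable exons, chosen largely at random, and the resulting mixture of proteins binds only to a matching mixture, which lets a dendrite or axon recognise branches of its own cell. The C-type genes at the end of the alpha and gamma clusters are expressed in a more regular way. Outside the clusters, the delta protocadherins act in axon growth, synapse formation and the sorting of neurons into layers and nuclei.

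Promoters are shown for the 3 genes outside the clusters that passed the test between PT and sham, Pcdh7, Pcdh10 and Pcdh17. Each sequence runs from 250 bases before to 50 after the RefSeq transcript start (GRCm38.p6), and capitals mark CCAAT or its reverse complement ATTGG.
Pcdh7, chr5:57717831-57718130, plus strand: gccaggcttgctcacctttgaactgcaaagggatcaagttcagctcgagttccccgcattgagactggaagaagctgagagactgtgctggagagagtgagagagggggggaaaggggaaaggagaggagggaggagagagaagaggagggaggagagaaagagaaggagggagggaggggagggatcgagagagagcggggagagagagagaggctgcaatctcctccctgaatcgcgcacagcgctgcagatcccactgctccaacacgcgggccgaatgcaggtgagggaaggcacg
Pcdh10, chr3:45378148-45378447, plus strand: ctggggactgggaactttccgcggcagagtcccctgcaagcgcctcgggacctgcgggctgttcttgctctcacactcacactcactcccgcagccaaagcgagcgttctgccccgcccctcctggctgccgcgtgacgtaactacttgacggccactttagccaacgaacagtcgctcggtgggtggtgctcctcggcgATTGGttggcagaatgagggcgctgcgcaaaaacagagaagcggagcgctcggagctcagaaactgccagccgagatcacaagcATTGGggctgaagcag
Pcdh17, chr14:84443313-84443612, plus strand: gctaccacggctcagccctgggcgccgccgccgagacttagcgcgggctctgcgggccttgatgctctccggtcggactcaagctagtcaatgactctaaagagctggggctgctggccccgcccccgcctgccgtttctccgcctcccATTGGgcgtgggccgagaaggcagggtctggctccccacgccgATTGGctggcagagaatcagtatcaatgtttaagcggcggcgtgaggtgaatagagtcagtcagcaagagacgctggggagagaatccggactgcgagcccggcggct
CCAAT, searched on both strands and chosen after the sequences had been read, is absent from this window of Pcdh7. In Pcdh10 it begins 50 bases before the start and again 34 bases after it, and in Pcdh17 it occurs 101 and 58 bases before it. Of the 12 genes outside the clusters 9 had a promoter in the RefSeq table, and CCAAT occurred in 8 of these 9 genes, while 37.4% of all 32851 promoters hold it. TATAAA, also searched on both strands, occurred in Pcdh8 and Pcdh15, against 13.6% of all promoters. The windows of Pcdh7, Pcdh10 and Pcdh17 hold 11, 24 and 26 CG dinucleotides, where the median promoter holds 7. These matches describe the letters in the window and say nothing about binding.

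Total counts lay between 57437342 and 75100133 per library, between 26579 and 27979 genes were detected, and the mitochondrial share of counts was 7.05% to 9.28%. Protocadherins took 0.173% to 0.201% of counts. The labels' extraction protocol speaks of retinas although the tissue label is brain, and all 8 photoreceptor markers looked at were at 0.27 FPKM (fragments scaled to gene length and library size) or less in every library. PT library 1 stood apart in striatal neuron markers, at 3.27 above the sham mean on the log2 scale against at most 1.11 in any other library. PT library 1 and Pushen library 2 were highest in choroid plexus markers, at 4.12 and 4.22 against at most 2.29 elsewhere, and counts of called members are therefore also given without these libraries.

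Of the 70 members 60 lie on chromosome 18, and the 58 clustered genes span chr18:36930184-37841873 (GRCm38). All 14 alpha rows share exonic bases with one another in the GENCODE annotation, a median of 53.4% of each gene's exonic length, and all 22 gamma rows do so over 27.8% to 66.8% (median 44.7%). In the beta cluster only Pcdhb21 and Pcdhb22 overlap, by 455 bases. A read from a constant exon therefore belongs to no particular alpha or gamma gene. A gene length computed from count, FPKM and the library's summed counts was a near-constant multiple of the whole exonic length, shared exons included. It was 1.14 times at the median and 1.14 to 1.16 over 69 rows. The size of this factor depends on which library total the FPKM used. Clustered FPKM values are thus in proportion to counts per whole exonic length. The table also holds 2 rows named Pcdha11, which are given with their identifiers.

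The comparison of PT with sham asks which protocadherin transcripts differed around the infarct. Fitted changes were mostly below 0, but most members did not pass the test. Pcdh7 fell to about 0.326 of its sham level, while Pcdhgc3, a C-type gene of the gamma cluster, was the only member that passed as higher. Of the 61 members with a mean of at least 0.5 FPKM, 10 fell and 1 rose by edgeR's quasi-likelihood test at a Benjamini-Hochberg adjusted p under 0.05. That is 16.4% of members lower, where 11.8% of all 16740 tested genes were lower, and 1.64% higher, where 19.1% were higher. The fitted change was below 0 in 50 of 61 members and in 50.3% of all tested genes, and the median log2 fold change was -0.39 in the family against -0.003 over all genes. At an unadjusted p under 0.05 there were 21 members (34.4%, against 42.9% of all tested genes). Groups did not overlap in 21 members that were lower in PT (34.4%, against 23.4% of all tested genes) and in 1 that was higher (1.6%, against 26.2%). Without PT library 1 and Pushen library 2 the count of called members was 5, of which 2 were higher and 3 lower. Leaving out Sham library 1, 2 or 3, PT library 1 or Pushen library 2 lowered it to between 5 and 7. The number of members below 0 in each cluster was the same with each of the other scalings tried, except for 12 instead of 13 gamma members when counts were scaled by library size alone.

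**Figure D1:**
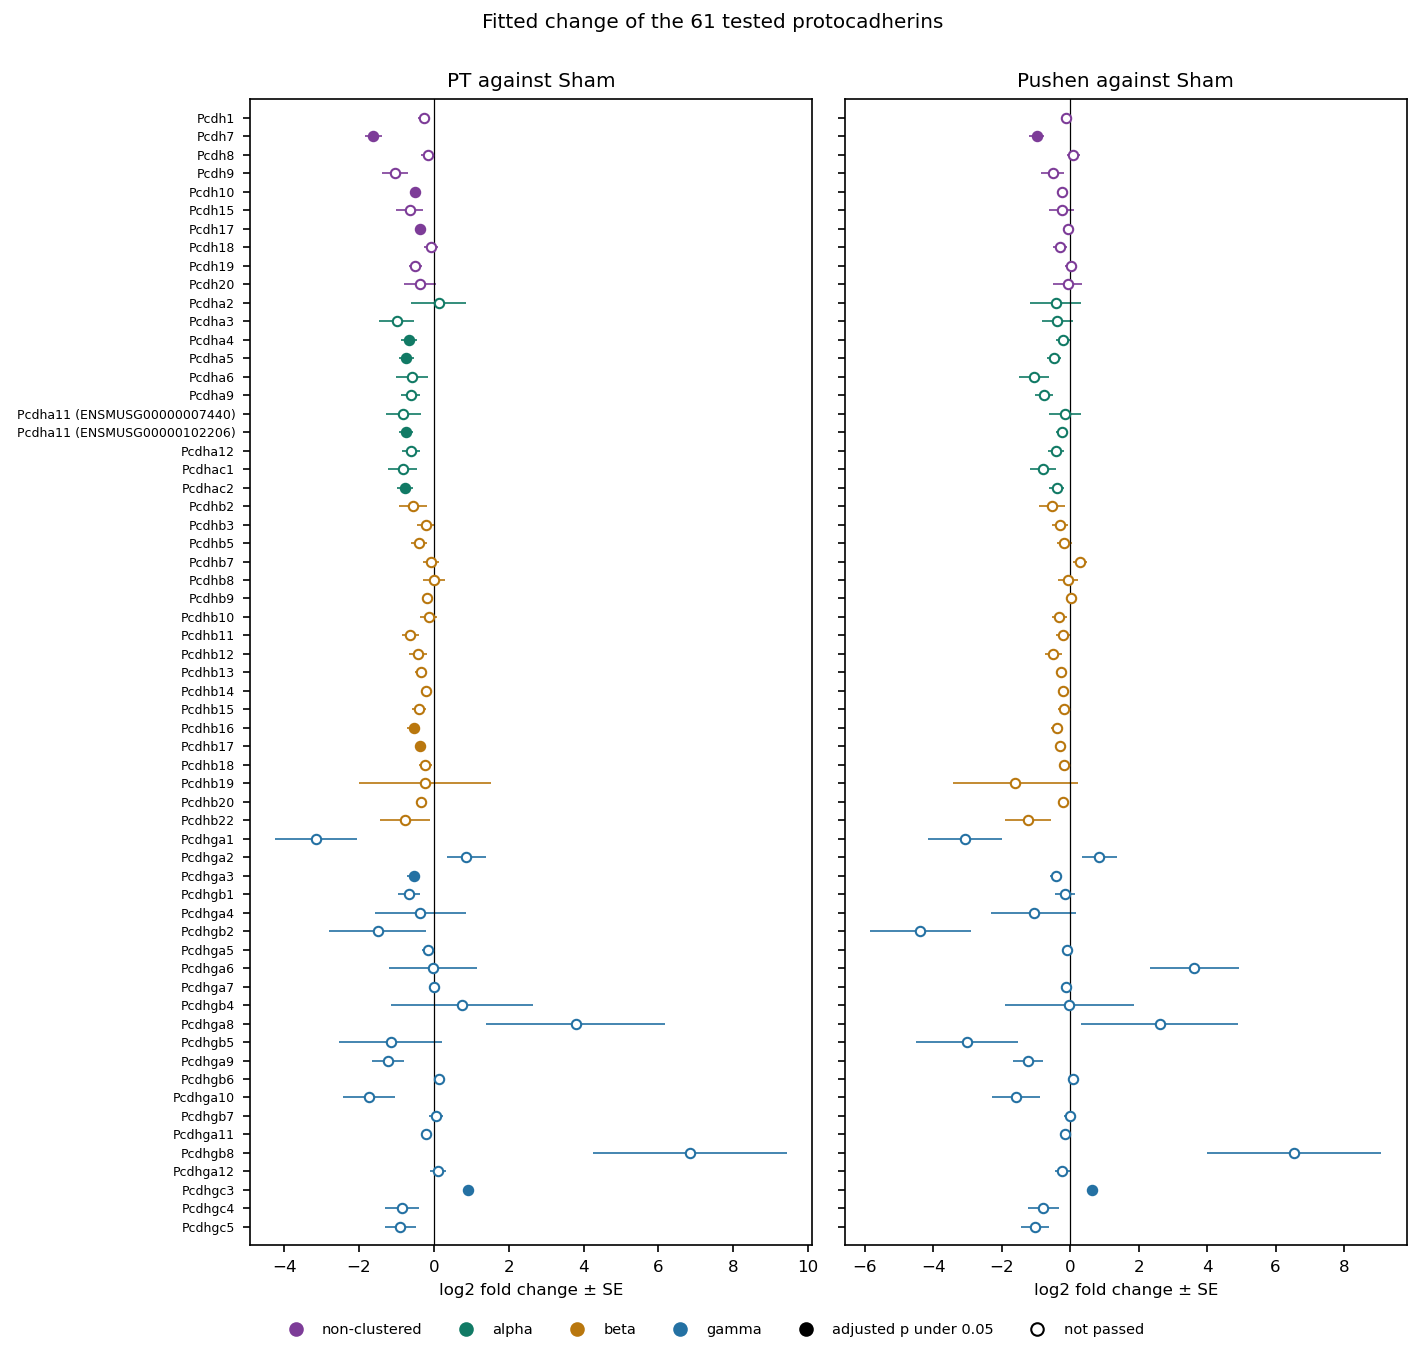
Fitted log2 fold change with its standard error (horizontal axis) for each of the 61 tested protocadherins (vertical axis, in cluster order), for PT against Sham on the left and Pushen against Sham on the right, with filled points at an adjusted p under 0.05. In the left panel 50 of 61 points lie left of 0, and several gamma genes have standard errors above 1.

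Of the 10 tested genes outside the clusters 3 fell (30%, against 11.8% of all tested genes) and none rose. All 10 had a fitted change below 0 (median log2 fold change -0.43). Pcdh7 (ENSMUSG00000029108, chr5:57717967-58133230), a delta protocadherin that inhibits protein phosphatase 1 alpha through its cytoplasmic tail, was at 6.73, 6.33 and 6.85 FPKM in the sham libraries. It was at 1.99, 3.24 and 1.53 FPKM in PT and at 3.71, 3.26 and 3.55 FPKM in Pushen. Every PT library and every Pushen library was below every sham library, and the Pushen libraries all lay above the PT libraries, the highest PT library nearly meeting the lowest Pushen library. The mean was 6.64 ± 0.27 FPKM in sham and 2.25 ± 0.88 FPKM in PT (SD, n = 3 each), with a log2 fold change of -1.62 ± 0.23 (SE; edgeR adjusted p = 0.00131). The change kept its call in all 21 alternatives, with log2 fold changes from -1.97 to -1.42 when a library was left out. An opposite-strand gene, 4932441J04Rik, overlaps 21.1% of the exonic bases of Pcdh7, and strand use in counting is not stated. It had 480 to 493 counts in sham and 412 to 549 in PT libraries, beside 5412 to 5635 and 1193 to 2939 counts of Pcdh7.

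Pcdh10 (ENSMUSG00000049100, chr3:45378398-45423711), which recruits the actin-regulating WAVE complex and takes part in synapse elimination, fell less. Its levels were 11.82, 11.24 and 10.87 FPKM in sham, 6.91, 9.41 and 8.74 FPKM in PT and 9.18, 9.73 and 10.86 FPKM in Pushen. All PT libraries were below all sham libraries, with PT library 1 the lowest. The log2 fold change was -0.49 ± 0.12 (SE; edgeR adjusted p = 0.0166), and the call was lost without Sham library 1 (adjusted p = 0.0613). Pcdh17 (ENSMUSG00000035566, chr14:84443563-84539002), which also recruits the WAVE complex and acts in axon growth, was at 4.25, 4.15 and 4.05 FPKM in sham, 2.84, 3.87 and 3.26 FPKM in PT and 3.78, 4.28 and 4.37 FPKM in Pushen. The PT libraries were all below sham, while Pushen overlapped sham. Pcdh17 fell by 0.38 ± 0.12 on the log2 scale (SE; edgeR adjusted p = 0.0359). That call was lost in 12 of 21 alternatives, among them the omission of Sham library 1, 2 or 3, of PT library 1 or 3, or of Pushen library 2 (adjusted p from 0.0514 to 0.107).

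The other 7 tested genes outside the clusters did not pass. Pcdh9 (delta protocadherin; ENSMUSG00000055421) was at 12.41, 14.84 and 6.89 FPKM in sham and 7.15, 5.82 and 4.34 FPKM in PT, so that Sham library 3 lay below the highest PT library. Its log2 fold change was -1.04 ± 0.35 (SE; edgeR adjusted p = 0.0512), and without Sham library 3 it was -1.30 (adjusted p = 0.0234), without Pushen library 1 -1.04 (adjusted p = 0.0302). Pcdh19 (ENSMUSG00000051323), the X-linked gene whose human counterpart is mutated in a clustering epilepsy, was at 2.40, 2.13 and 2.03 FPKM in sham and 1.21, 1.60 and 2.04 FPKM in PT. The fitted change was -0.49 ± 0.18 (adjusted p = 0.0625), and -0.71 without PT library 3 (adjusted p = 0.00849). Pcdh20 had levels of 2.76 to 3.02 FPKM in sham but 1.19, 1.61 and 4.21 FPKM in PT, with PT library 3 above all sham libraries and the other two below them. Without PT library 3 its fitted change was -1.13 (adjusted p = 0.0146). Pcdh1, the most abundant of the genes outside the clusters, was at 27.5 ± 2.0 FPKM in sham and 23.6 ± 5.4 FPKM in PT (SD, n = 3 each), and without PT library 3 its log2 fold change was -0.43 (adjusted p = 0.0492). Pcdh8 (arcadlin in rat), induced by synaptic activity, was at 6.29 ± 1.08 and 5.85 ± 1.57 FPKM. Pcdh15, a part of the tip link of hair cells, was at 0.64 ± 0.06 and 0.43 ± 0.22 FPKM, and Pcdh18 at 1.07 ± 0.08 and 1.05 ± 0.16 FPKM.

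**Figure D2:**
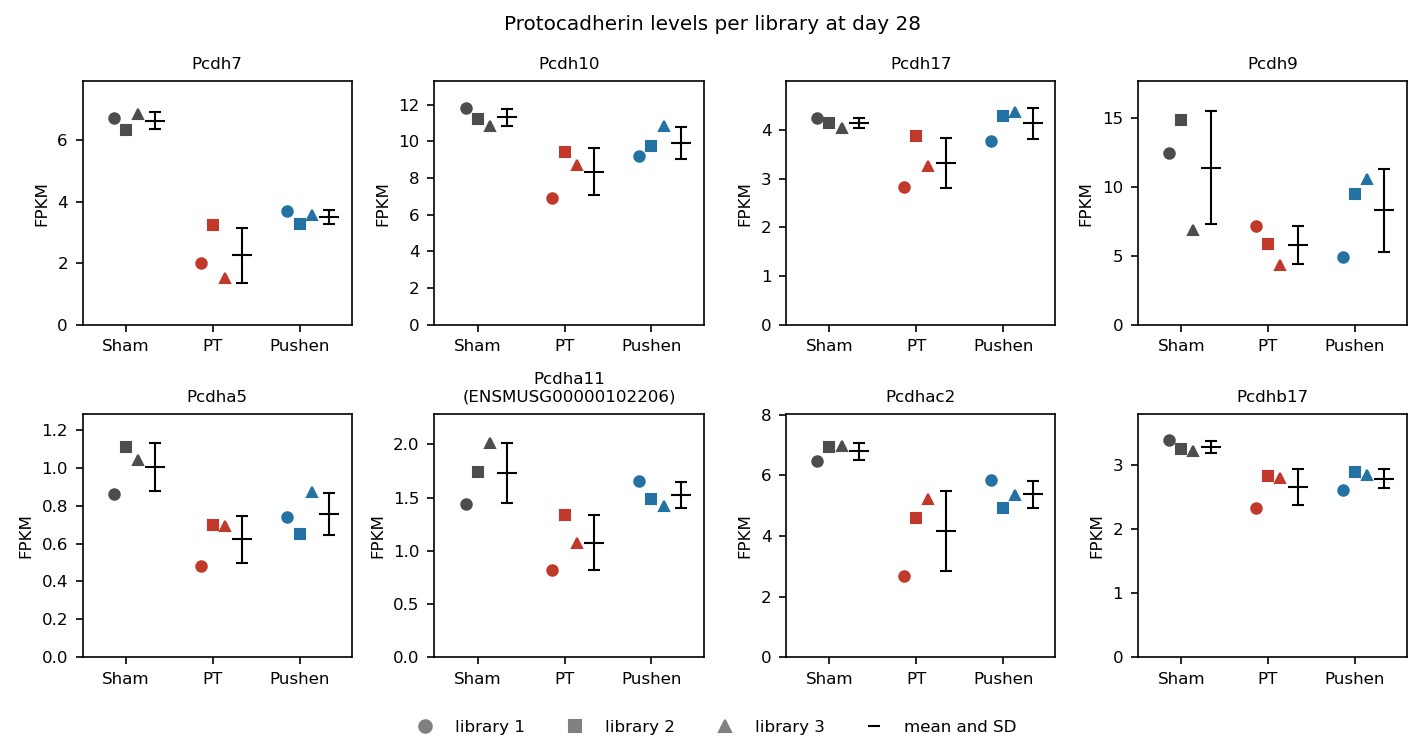
FPKM per library (vertical axes, from 0) for 8 protocadherins in the Sham, PT and Pushen groups, with mean and SD beside the points. Pcdh7 lies between 1.53 and 3.24 in PT and between 6.33 and 6.85 in Sham, while Pcdh9 varies within Sham from 6.89 to 14.84.

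In the alpha cluster 4 of 11 tested genes fell (36.4%, against 11.8% of all tested genes) and none rose. The fitted change was below 0 in 10, and the median log2 fold change was -0.73. Alpha genes share constant exons, so these calls and directions may not be separate observations. Pcdhac2 (ENSMUSG00000102697, chr18:37143503-37187657), the C-type gene that spaces serotonergic axons in mice, was the most abundant alpha gene and held 30.1% to 40.8% of the cluster's counts in each library. It was at 6.46, 6.94 and 6.95 FPKM in sham, 2.67, 4.60 and 5.22 FPKM in PT and 5.83, 4.92 and 5.35 FPKM in Pushen. Both infarct groups were below sham in every library, and PT library 1 was by far the lowest. Pcdhac2 fell by 0.76 ± 0.21 on the log2 scale (SE; edgeR adjusted p = 0.025), and the call was lost without Sham library 1, 2 or 3 (adjusted p from 0.0617 to 0.0661). The other C-type alpha gene, Pcdhac1, was at 0.84, 0.75 and 0.66 FPKM in sham and 0.20, 0.50 and 0.62 FPKM in PT. These groups did not overlap, but the fitted change of -0.83 ± 0.38 did not pass (adjusted p = 0.13).

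The other alpha genes that fell encode variable isoforms of the kind chosen at random in neurons. Pcdha5 (ENSMUSG00000103092) was at 0.86, 1.11 and 1.04 FPKM in sham, 0.48, 0.70 and 0.69 FPKM in PT and 0.74, 0.65 and 0.87 FPKM in Pushen. PT lay below sham throughout, and the log2 fold change was -0.74 ± 0.20 (SE; edgeR adjusted p = 0.0223). Pcdha11 (ENSMUSG00000102206) was at 1.44, 1.74 and 2.01 FPKM in sham, 0.82, 1.34 and 1.07 FPKM in PT and 1.66, 1.49 and 1.42 FPKM in Pushen. PT was again below sham in every library while Pushen overlapped sham, and the log2 fold change was -0.73 ± 0.19 (adjusted p = 0.0178). Pcdha4 (ENSMUSG00000104252) had 0.98, 1.17 and 0.74 FPKM in sham, 0.58, 0.65 and 0.65 FPKM in PT and 0.68, 0.92 and 1.00 FPKM in Pushen, with a log2 fold change of -0.67 ± 0.21 (adjusted p = 0.0391). The call of Pcdha5 was lost when Sham library 2 or 3, or PT library 1, was left out, with adjusted p from 0.0566 to 0.0762, that of Pcdha11 without Sham library 2 or 3 (0.0504 and 0.0609) and that of Pcdha4 in 12 of 20 alternatives (0.0536 to 0.136), among them the omission of Sham library 1 or 2, any PT library or Pushen library 2. Other annotated genes overlap 43.3% of the exonic bases of Pcdha4 and 45.2% of those of this Pcdha11. Pcdha6, among the most abundant alpha genes, was at 2.08 ± 0.61 FPKM in sham and 1.45 ± 0.19 FPKM in PT (SD, n = 3 each) and did not pass. The other row named Pcdha11 (ENSMUSG00000007440) did not pass either, with overlapping groups. Its log2 fold change was -0.82 ± 0.47 (SE; edgeR adjusted p = 0.214).

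In the beta cluster 2 of 18 tested genes fell and none rose. That is 11.1% lower, near the 11.8% of all tested genes. The fitted change was below 0 in 17 (median log2 fold change -0.35). With the 3 beta rows at 0 in any library left out, its genes varied least between libraries. The median ratio of highest to lowest count per library size was 1.81, against 2.63 outside the clusters, 3.98 in alpha and 4.66 in gamma. The highest beta ratio was 7.46. Pcdhb17 (ENSMUSG00000046387, chr18:37484795-37489454) was at 3.40, 3.25 and 3.22 FPKM in sham, 2.34, 2.84 and 2.80 FPKM in PT and 2.62, 2.90 and 2.85 FPKM in Pushen. Sham lay above all infarct libraries, PT and Pushen overlapped, and the log2 fold change was -0.36 ± 0.11 (SE; edgeR adjusted p = 0.0337). Pcdhb16 (ENSMUSG00000047910) was at 1.18, 0.94 and 0.98 FPKM in sham, 0.65, 0.79 and 0.78 FPKM in PT and 0.96, 0.78 and 0.71 FPKM in Pushen, with a log2 fold change of -0.54 ± 0.17 (adjusted p = 0.0416). Each call was lost in most alternatives. For Pcdhb17 these were 12 of 21, among them the omission of any Sham library or of PT library 1 or 2 (adjusted p from 0.0509 to 0.106). For Pcdhb16 they were 14 of 20, among them the omission of any Sham or PT library or of Pushen library 2 (adjusted p from 0.0521 to 0.138). Pcdhb9 and Pcdhb20, the other abundant beta genes, were at 3.58 ± 0.07 and 3.15 ± 0.20 FPKM in sham and 3.30 ± 0.47 and 2.58 ± 0.30 FPKM in PT (SD, n = 3 each), and neither passed. The 3 beta rows left out were listed at 0 in more than 1 library. Pcdhb19 had no count in Sham library 2 and Pushen libraries 1 and 2, and up to 691 counts elsewhere, and Pcdhb21 had none in PT library 1 and Pushen library 2.

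In the gamma cluster 1 of 22 tested genes rose and 1 fell (together 9.09%, against 30.9% of all tested genes). The fitted change was below 0 in 13 (median log2 fold change -0.19). Pcdhgc3 (ENSMUSG00000102918, chr18:37806364-37841873), which promotes branching of cortical dendrites in mice, was at 8.36, 9.70 and 10.23 FPKM in sham. It was at 20.29, 18.65 and 16.50 FPKM in PT and at 16.95, 16.78 and 12.23 FPKM in Pushen. All infarct libraries were above all sham libraries, and PT and Pushen overlapped. Mean levels were 9.43 ± 0.96 FPKM in sham and 18.5 ± 1.9 FPKM in PT (SD, n = 3 each), and Pcdhgc3 rose 1.89-fold in the fit (log2 0.91 ± 0.13, SE; edgeR adjusted p = 0.00161). The call was kept in all 21 alternatives, which all used the same assigned reads and so do not test that assignment. Pcdhgc3 shares 38.5% of its exonic bases with other gamma genes. Its share of the cluster's counts was 6.96% to 7.14% in sham, 11.1% to 12.1% in PT and 9.70% to 12.1% in Pushen, with no overlap between sham and the infarct groups. Annotated genes outside the family overlap 39.8% of its exonic bases, and the opposite-strand gene BC037039 had 29 to 218 counts per library beside 3485 to 9064 of Pcdhgc3. The same-strand gene Gm38182 overlaps 628 of these bases. Its counts were 168, 0 and 13 in sham, 0, 33 and 13 in PT and 634, 17 and 1012 in Pushen.

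The other C-type gamma genes were variable. Pcdhgc5 was at 11.60, 20.76 and 24.11 FPKM in sham, 5.80, 18.08 and 7.59 FPKM in PT and 10.62, 10.93 and 7.31 FPKM in Pushen. PT library 2 lay within the sham range and the other PT libraries below it, and the fitted change of -0.90 ± 0.42 did not pass (adjusted p = 0.133). Without PT library 2 it was -1.54 (adjusted p = 0.0135). Pcdhgc4, which is needed for the survival of cortical interneurons in mice, was at 2.04, 7.11 and 2.15 FPKM in sham and 1.44, 2.28 and 2.73 FPKM in PT, a high value in Sham library 2 and overlapping groups otherwise. Pcdhga3 (ENSMUSG00000104346) was the gamma gene that fell, from 2.57, 3.66 and 2.82 FPKM in sham to 1.92, 2.12 and 2.45 FPKM in PT, groups that do not overlap. Its Pushen libraries, at 2.76, 2.40 and 1.94 FPKM, overlapped both groups in FPKM. The log2 fold change was -0.54 ± 0.17 (SE; edgeR adjusted p = 0.0438), and the call was lost in 13 of 21 alternatives, among them the omission of any Sham library, of PT library 1 or 2 or of Pushen library 2 (adjusted p from 0.0536 to 0.151).

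Among the A- and B-type gamma genes the row with the most counts changed from library to library. It was Pcdhgb4 in Sham library 1, PT library 1 and Pushen library 1, Pcdhgb2 in Sham libraries 2 and 3, Pcdhga8 in PT library 2, Pcdhga6 in Pushen library 2 and Pcdhgb8 in PT library 3 and Pushen library 3. Pcdhgb8 was at 0.38, 0.26 and 0.27 FPKM in sham, 0.30, 20.10 and 88.53 FPKM in PT and 0.29, 0.28 and 87.30 FPKM in Pushen. High values thus stood in PT libraries 2 and 3 and in Pushen library 3, and all others were below 1 FPKM. Pcdhgb8, annotated as a polymorphic pseudogene, passed the expression filter only through the libraries with high values. Pcdhgb4 was at 56.45, 10.07 and 2.20 FPKM in sham, 106.00, 1.36 and 15.40 FPKM in PT and 70.35, 0.96 and 0.61 FPKM in Pushen, highest in the library numbered 1 of every group. Their log2 fold changes in PT against sham, 6.85 ± 2.58 and 0.76 ± 1.89 (SE), did not pass (edgeR adjusted p = 0.0736 for Pcdhgb8). For Pcdhgb8 an edgeR adjusted p of 0.0165 was reached without Pushen library 3 and of 0.0281 with only the compared groups. It was 0.0357 without PT library 1 and Pushen library 2, and the DESeq2 adjusted p was 0.00255. The Pcdhgb4 log2 fold change was -1.52 without PT library 1.

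In all, 8 gamma genes (Pcdhga1, Pcdhga4, Pcdhgb2, Pcdhga6, Pcdhgb4, Pcdhga8, Pcdhgb5 and Pcdhgb8) varied over 10-fold between libraries, up to 646-fold for Pcdhga8. Their sum varied far less. These 8 genes were chosen after their values had been seen, and their sum is a description with no test. In CPM, the counts scaled to library size after adjustment by edgeR's TMM factors, it was 428, 431 and 444 in sham, 729, 525 and 611 in PT and 488, 567 and 498 in Pushen. Sham libraries differed little, although different genes made up the sum in each, and every infarct library lay above them. The 11 other A- and B-type genes summed to 168, 168 and 188 CPM in sham, 154, 143 and 139 in PT and 164, 135 and 137 in Pushen, with PT below sham in every library. All 22 gamma rows share the constant exons. A count moved between any of them leaves the cluster total as it was, whereas one moved between these sets changes both sums. The sources used here do not say how reads of the constant exons were assigned, and the part of this step in these values was not tested.

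**Figure D3:**
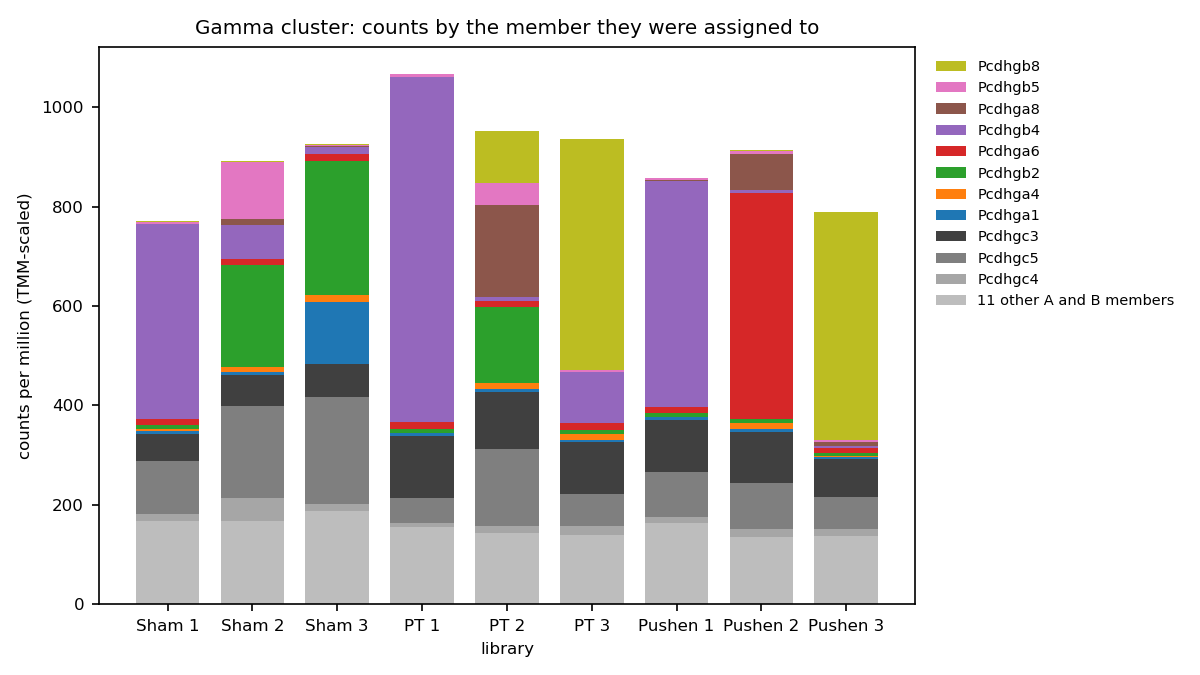
TMM-scaled CPM (counts per unit of library size, vertical axis) of the gamma cluster in each library (horizontal axis), stacked by the gene the counts were assigned to, with the 8 genes varying over 10-fold in colour and the rest in grey. The coloured block changes its gene from library to library while its height stays between 428 and 444 in Sham and between 525 and 729 in PT.

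Cluster totals do not depend on how the counted reads are divided within a cluster. Reads counted for Gm38182, which overlaps the gamma rows on the same strand, are outside the gamma total. The alpha total was 123, 139 and 130 CPM in sham, 59.0, 86.6 and 101 in PT and 93.9, 90.8 and 96.6 in Pushen. Both infarct groups lay below sham, and PT library 1 was lowest. The beta total was 157, 139 and 150 CPM in sham, 103, 127 and 122 in PT and 115, 120 and 122 in Pushen, again with sham above all infarct libraries. The gamma total was 771, 891 and 926 CPM in sham, 1068, 953 and 937 in PT and 859, 914 and 790 in Pushen. PT was above sham in every library by a small margin, and Pushen overlapped sham. When each cluster was fitted as 1 feature, the log2 difference between PT and sham was -0.67 ± 0.17 for alpha, -0.34 ± 0.09 for beta and 0.19 ± 0.10 for gamma (SE), given without a test.

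**Figure D4:**
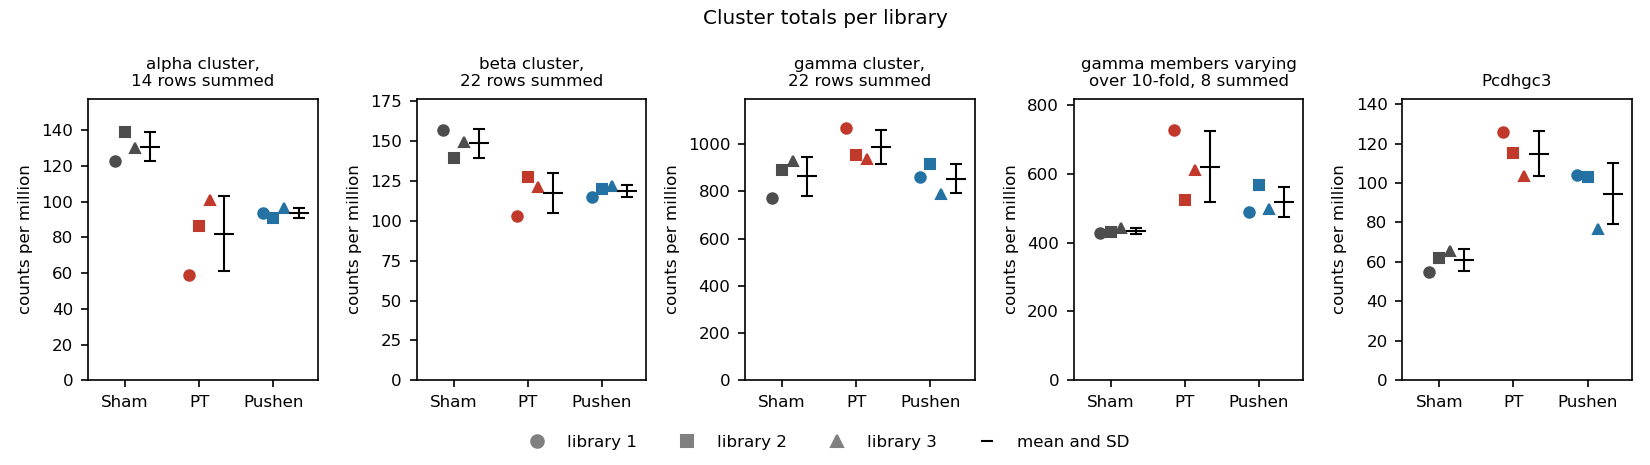
TMM-scaled CPM (counts per unit of library size, vertical axes, from 0) per library for the summed alpha, beta and gamma rows, the 8 gamma genes that varied over 10-fold, and Pcdhgc3, with mean and SD. Alpha and beta totals are lower in every PT and Pushen library than in Sham, and the last panel shows Pcdhgc3 higher in every infarct library.

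Markers of cell types differed between the same groups. Over all tested genes, 11.8% were lower and 19.1% higher in PT than in sham at the same threshold. Of 10 general neuron markers 7 were lower in PT and none higher (median log2 fold change -0.48), and all 10 passed the expression filter. Their mean log2 level relative to the sham mean was -0.08 to 0.08 in sham, -0.77 to -0.39 in PT and -0.51 to -0.20 in Pushen. Cortical excitatory neuron markers were lower in 2 of 8 cases and GABAergic neuron markers in 4 of 7, beside the 11.8% over all tested genes. Glial markers moved the other way. Astrocyte markers were higher in PT in 7 of 8 cases, with mean levels of -0.15 to 0.09 in sham, 1.02 to 1.51 in PT and 0.86 to 1.22 in Pushen. Microglia and macrophage markers were higher in 6 of 8 cases (1.446 to 1.998 in PT, 1.12 to 1.75 in Pushen), oligodendrocyte markers in 7 of 8 (0.26 to 1.11 and 0.63 to 0.80) and oligodendrocyte progenitor markers in 4 of 6 (0.20 to 0.59 and 0.15 to 0.46). Sham levels of these sets, in the same order, were -0.298 to 0.309, -0.153 to 0.294 and -0.145 to 0.089. For oligodendrocyte markers Sham library 3 (0.294) lay above PT library 3 (0.263). Meningeal and scar fibroblast markers were higher in 8 of 8 cases, endothelial markers in 6 of 8, ependymal markers in 5 of 5, choroid plexus markers in 2 of 6 and striatal neuron markers in 3 of 9. In such bulk tissue fewer cells of a type and less RNA per cell cannot be told apart, and the part of these markers in the protocadherin values was not tested.

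Other genes around the protocadherins are given from 3 lists. Of 24 tested adhesion relatives (classical cadherins, Fat, Dachsous, Celsr and calsyntenin genes) 5 rose and 11 fell in PT against sham, so that 16 of 24 passed where 30.9% of all tested genes did. The genes of smallest p were Cdh1, the cadherin of epithelia (log2 fold change 1.31 ± 0.18, edgeR adjusted p = 0.00111), Cdh6 (-1.04 ± 0.18, 0.00352), the planar polarity cadherin Celsr1 (1.24 ± 0.23, 0.00446) and Cdh12 (-1.10 ± 0.21, 0.00515). The second list held 17 tested genes for cohesin, CTCF and chromatin factors that act on clustered protocadherin promoters. None rose and 4 fell, where 19.1% and 11.8% of all tested genes did. These were the cohesin regulators Pds5b (-0.46 ± 0.11) and Wapl (-0.30 ± 0.08), the cohesin subunit Smc1a (-0.20 ± 0.07) and Smchd1 (-0.41 ± 0.12), a chromatin protein that represses clustered protocadherins, while Ctcf itself had -0.19 ± 0.09 and did not pass (adjusted p = 0.123). Of 20 tested partners and signalling genes 3 rose and 5 fell, where 19.1% and 11.8% of all tested genes did. Of 8 listed subunits of the WAVE complex, which Pcdh10 and Pcdh17 bind, 4 fell, 1 rose and 3 did not pass, beside these same shares. Those that fell were Wasf1 (-0.43 ± 0.09), Nckap1 (-0.55 ± 0.12), Abi2 (-0.62 ± 0.16) and Cyfip2 (-0.45 ± 0.14), and the one that rose was Cyfip1 (0.35 ± 0.08). The kinase Ptk2, which gamma and alpha protocadherins inhibit, was lower by 0.44 ± 0.09 on the log2 scale (edgeR adjusted p = 0.00836).

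Pushen was compared with PT to ask whether the treated libraries differed from the vehicle infarct libraries. No member passed edgeR's adjusted threshold, nor did any of the 16740 genes (0%). At an unadjusted p under 0.05 there were 5 of 61 members (8.2%, against 6.49% of all tested genes), and DESeq2 called 0 members and 48 genes. The 5 members were Pcdh7 (log2 difference 0.63 ± 0.22, SE), Pcdh19 (0.50 ± 0.18), Pcdh17 (0.31 ± 0.12), Pcdha11 (ENSMUSG00000102206; 0.49 ± 0.19) and Pcdhga6 (3.64 ± 1.29), each with an edgeR adjusted p of 0.707. Pcdhga6 rests on Pushen library 2, at 85.80 FPKM against at most 2.71 FPKM elsewhere. For Pcdh7 the value was 0.42 to 0.98 when a library was left out. Pcdh19 was at 2.19, 2.47 and 2.27 FPKM in Pushen, above the highest PT library at 2.04 FPKM. Groups did not overlap in 7 members higher in Pushen (11.5%, against 6.25% of all tested genes) and in none lower (0%, against 5.97%). The fitted difference was above 0 in 9 of 10 genes outside the clusters, 8 of 11 alpha, 12 of 18 beta and 8 of 22 gamma genes, while 51.7% of all tested genes were below 0. These differences use the same PT libraries as the comparison with sham and are not independent of it. In the adhesion, promoter and partner lists 0 genes passed.

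Pushen was also compared with sham, using the same sham libraries as the PT comparison, so that the results of the 2 comparisons are not independent. Here 1 member fell and 1 rose, 1.6% and 1.64% of the 61, while 2.73% of all tested genes fell and 13.5% rose. At an unadjusted p under 0.05 there were 14 members (23.0%, against 31.9% of all tested genes). Pcdh7 was lower by 0.99 ± 0.22 on the log2 scale (SE; edgeR adjusted p = 0.0174) with every Pushen library below every sham library. Pcdhgc3 was higher by 0.63 ± 0.13 (adjusted p = 0.0128), again with no overlap. The call of Pcdh7 was lost when Sham library 1 or 3, or Pushen library 1 or 2, was left out, with adjusted p from 0.0516 to 0.0702, and that of Pcdhgc3 without Sham library 1 or Pushen library 1 or 2 (0.053 to 0.0556). Leaving out libraries changed the number of called members between 0 and 5. Without PT library 1 and Pushen library 2 together it was 3 (2 higher and 1 lower), and Pcdh7 was not called (adjusted p = 0.0711). It was 0 without Pushen library 1 or 2, 1 without Sham library 1 or 3, and 4 or 5 without PT library 1 or 2 or Pushen library 3. Groups did not overlap in 15 members lower in Pushen (24.6%, against 19.6%) and in 1 higher (1.6%, against 23.1%). The members that fell in PT had smaller fitted differences here, among them Pcdh10 (-0.25 ± 0.12), Pcdh17 (-0.07 ± 0.12), Pcdha5 (-0.47 ± 0.20), Pcdhac2 (-0.40 ± 0.21) and Pcdhb17 (-0.30 ± 0.11), and none of these passed. They were selected by their fall in PT, and smaller values in another comparison can arise from that selection alone. Pcdhac2 passed without PT library 1 (edgeR adjusted p = 0.0165) and Pcdhb17 (0.0422) and Pcdhac1 (0.0485) likewise. Pcdhgc5 passed without PT library 2 (0.0419) and Pcdha6 without Pushen library 3 (0.0246). With only the compared groups Pcdhac2 (0.0146) and Pcdhgc5 (0.0411) passed. By DESeq2 adjusted p, Pcdhb17 (0.047), Pcdha6 (0.0446) and Pcdhgb8 (0.0066) passed.

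Below the expression filter were 9 members, Pcdh11x, Pcdh12, Pcdha1, Pcdha7, Pcdha8, Pcdhb1, Pcdhb4, Pcdhb6 and Pcdhb21, and none had an adjusted p under 0.05 in the fit without a filter. Their group means lay between 0.013 and 0.64 FPKM. Pcdh12, known from endothelial cells and placenta, was at 0.04 to 0.12 FPKM in every library, and Pcdhb1 had at most 8 counts. Just outside the filter were Pcdh11x and Pcdha7, with means over all libraries of 0.463 and 0.493 FPKM, and just inside it were Pcdha3 and Pcdh15, at 0.526 and 0.542 FPKM.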

How the data were processed

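Libraries of the sham, PT and Pushen groups were RNA-seq libraries from an Illumina TruSeq kit, per the labels' protocols. Raw counts per gene were deposited beside FPKM, which the authors scaled to gene length and library size. All 18 value columns carry library names that match the labels. The submitters' processing notes name Bowtie 0.12.2 and mm8, but the table's coordinates equal those of GENCODE M21 (GRCm38) for 51957 of 55141 shared identifiers (94.2%), and GRCm38 is used here. Counter, settings and use of strand: not given in the sources used here, so overlapping genes and clustered genes, whose shared exons may split reads, have uncertain values.

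Genes averaging at least 0.5 FPKM were tested in 1 fit of all 9 libraries with edgeR 4.0.16 in R 4.3.3 (TMM scaling, quasi-likelihood test). P-values were adjusted by Benjamini-Hochberg over all tested genes within each comparison, with a threshold of 0.05. Errors are the SD of 3 libraries or the SE of a fitted log2 fold change. Groups were said not to overlap from TMM-scaled CPM. Members and lists were chosen with earlier results of these data known. Named are the tested genes outside the clusters, clustered genes that passed in a comparison, the 3 most abundant of each cluster, the C-type genes and up to 4 genes per list. Others (Pcdhga6 in Pushen against PT, the Pcdha11 row ENSMUSG00000007440, Pcdhb19, Pcdhb21, the genes below the filter, the 8 gamma genes, Abi2, Cyfip2 and Ctcf) were named after their values were seen. Alternatives were other filters and scalings, DESeq2 1.42.0, limma-trend 3.58.1 on log2(FPKM + 0.1) and log2(FPKM + 1), fits of the compared groups only, a replicate block, and leaving out each library, or PT library 1 with Pushen library 2. Figures were drawn with matplotlib 3.10.9. Each dose has 1 library, so dose was left out of the model.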

Additional observations from a re-analysis of the deposited data

How the results depend on the processing

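Whether the replicate numbers pair the libraries is not known, and the main fit used no pairing. Deviations of same-numbered libraries from their group means correlated between -0.225 and 0.085. With 3 libraries per group such values cannot show that libraries were unpaired. With the replicate block 7 members were called in PT against sham. That count was 6 with no filter or with library size only, 18 with DESeq2, 5 and 6 with limma-trend at pseudocounts 0.1 and 1, 5 without PT library 1 and Pushen library 2, and 5 to 12 when 1 library was left out. In Pushen against sham it was 5 with only the compared groups, 8 with DESeq2 and 0 to 5 when 1 library was left out, against 2. In Pushen against PT it was 0 throughout. The other values were recomputed for the 26 named members, not for the 35 other tested members. Of these 1623 values, 1465 kept their direction and side of the threshold, 83 lost a call, 25 gained one and 50 changed sign. Most of the 1465 belong to members not called in the main fit. All 83 lost calls fall on the 11 calls of PT against sham and the 2 of Pushen against sham. The causes of these changes were not tested.

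Signs changed as follows, in log2 units. Without PT library 1 and Pushen library 2, PT against sham gave 0.0377 for Pcdh18 and -1.52 for Pcdhgb4. Pushen against PT gave -0.0677 for Pcdh15, -0.17 for Pcdhac1, -0.0536 for Pcdhb17, -0.0185 for Pcdhb20, 2.05 for Pcdhgb4 and -0.19 for Pcdhgc4. Pushen against sham gave -0.037 for Pcdh19, 0.0369 for Pcdh20, -0.0041 for Pcdhb9 and 0.54 for Pcdhgb4. In Pushen against PT, Pcdhgc5 was 0.0235 with the block and 0.029 and 0.0159 with limma-trend. In Pushen against sham, library size scaling gave 0.0027 for Pcdh17 and 0.0727 for Pcdhgb4, no filter gave -0.0083 for Pcdh19 and -0.0103 for Pcdhb9, and edgeR's filterByExpr gave -0.0028 and -0.0043. Ranges on leaving out 1 library were as follows. In PT against sham they were -0.19 to 0.0377 for Pcdh18 and -1.52 to 2.69 for Pcdhgb4. In Pushen against PT they were -0.0273 to 0.29 for Pcdh1, -0.0228 to 1.04 for Pcdh20, -0.31 to 0.38 for Pcdhac1, -0.0278 to 0.11 for Pcdhb17, -5.70 to 1.48 for Pcdhgb4, -7.00 to 1.53 for Pcdhgb8, -0.15 to 0.28 for Pcdhgc4 and -0.42 to 0.51 for Pcdhgc5. In Pushen against sham they were -0.0268 to 0.20 for Pcdh8, -0.0429 to 0.0969 for Pcdh19, -0.39 to 0.076 for Pcdh20, -0.0493 to 0.0809 for Pcdhb9, -4.94 to 1.90 for Pcdhgb4, -0.16 to 7.12 for Pcdhgb8 and -1.08 to 0.0426 for Pcdhgc4. None of these values passed the threshold with its sign changed.

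Depth limits genes with few counts, such as Pcdhb1 with at most 8 counts per library. Clusters summed before the fit gave the totals in the report, with no test.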
